A study of Homo sapiens with 2 samples.

Results

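CCN1, CCN2, AMOTL2, AMOTL1, LATS2 and AXL are genes whose transcription is raised by YAP and TAZ, and their values were followed in 293T cells given the ROCK inhibitor Y27632. The 6 genes were taken by symbol, of 12445 named genes on the array. The array annotation listed CCN1 under its older symbol CYR61 and CCN2 under CTGF. Each of the 6 had 1 probe, and 5 had a value on each array. AXL had none at either time.

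293T is an established line derived from human embryonic kidney cells and transformed with viral genes. On each of 2 dual-colour arrays, RNA of 293T cells with no agent, at a time of 0 h, was labelled with Cy5. The Cy3 channel of the same array held RNA of 293T cells treated with Y27632 at 10 µM, for 3 h on one array and 6 h on the other. There was 1 array per time and no dye swap, so no value has a replicate, no p-value is given, and the agent, the time in culture, the dye and the array cannot be told apart. No vehicle control was used here, and whether both arrays carried the same control RNA is not stated in the labels. Values of the same gene at both times are therefore given side by side or as a difference, with no correlation between the arrays.

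The deposited number is 1 log ratio per probe, read as log2. The numerator of the ratio is not given in the sources used here. If the treated channel was the numerator, positive values mean more RNA after treatment, and otherwise less. Signs below are those deposited. Turning them keeps the size of every value and of every gap between genes and reverses its direction, so that positive becomes negative, highest becomes lowest, and a share of genes that were more positive becomes one of genes that were more negative. A ratio also gives no level, so the identity of the cells could not be checked by the presence of marker transcripts.

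YAP and TAZ are coactivators that carry no DNA-binding domain of their own and reach promoters and enhancers through the TEAD factors. The kinases LATS1 and LATS2, at the end of the Hippo cascade, phosphorylate YAP and TAZ and hold them in the cytoplasm or send them to degradation. Actomyosin tension, which ROCK1 and ROCK2 promote through myosin light chain, is known to favour YAP and TAZ in the nucleus. CCN1 and CCN2 are secreted matricellular proteins, widely used as readouts of this pathway. AMOTL2 and AMOTL1 are angiomotin proteins of cell junctions and actin, which bind YAP. AMOTL2 and LATS2 are at the same time targets and restraints of YAP and TAZ. AXL is a receptor tyrosine kinase of the TAM family.

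Promoter windows of RefSeq (GRCh38.p14), 250 bases before to 50 after each annotated start, were matched by symbol for 5 of the 6 genes, CCN2, AMOTL2, AMOTL1, LATS2 and AXL, in 7 windows. The first 250 bases are shown for CCN2 and AMOTL2, which lay farthest apart in the values that follow among the genes with a window, and a site of 30 bases is shown for LATS2. Capitals mark GGAATG, the core of the TEAD recognition motif, or its reverse complement CATTCC. CCN2 lies on the minus strand at chr6:131951373-131951622, AMOTL2 (the second of its 2 starts) on the minus strand at chr3:134374448-134374697, and the LATS2 site on the minus strand at chr13:21061560-21061589. All are written 5′ to 3′ on the strand of the gene.
CCN2: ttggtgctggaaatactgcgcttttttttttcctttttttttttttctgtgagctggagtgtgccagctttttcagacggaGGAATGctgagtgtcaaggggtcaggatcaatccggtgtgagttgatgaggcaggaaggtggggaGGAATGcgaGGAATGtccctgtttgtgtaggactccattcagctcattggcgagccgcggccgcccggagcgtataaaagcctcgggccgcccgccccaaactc
AMOTL2: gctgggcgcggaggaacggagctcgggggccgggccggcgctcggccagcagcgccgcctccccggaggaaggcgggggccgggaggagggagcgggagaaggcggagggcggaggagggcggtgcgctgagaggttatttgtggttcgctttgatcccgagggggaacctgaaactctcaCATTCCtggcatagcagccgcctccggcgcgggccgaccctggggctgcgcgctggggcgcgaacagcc
LATS2: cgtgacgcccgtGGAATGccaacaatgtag

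The CCN2 window held 3 matches, which began 169, 104 and 95 bases before the start. AMOTL2 held 1 match at its second start, on the opposite strand, whose first base was 69 bases before the start, and none at its first. In LATS2 the match began at base 10 after the start, and in AXL it began 212 bases before the second start. AMOTL1 held none. GGAATG on either strand was present in 14.0% of all 35116 windows of this length, and 3 or more matches were present in 45 of them (0.128%). Of 16 genes of a wider list of YAP and TAZ targets with a window, 9 held the motif, against 16.7% of all genes with a window. These 9 include CCN2, AMOTL2, LATS2 and AXL, so the list is not a separate set. The AP-1 motif TGANTCA, searched on both strands, was in none of the 7 windows and in 7.71% of all windows. The CArG box, the motif of SRF, was likewise in none of the 7 and in 1.29% of all. These matches describe letters and not occupied sites, since no binding was measured, and the windows leave out distal enhancers.

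**Figure D1:**
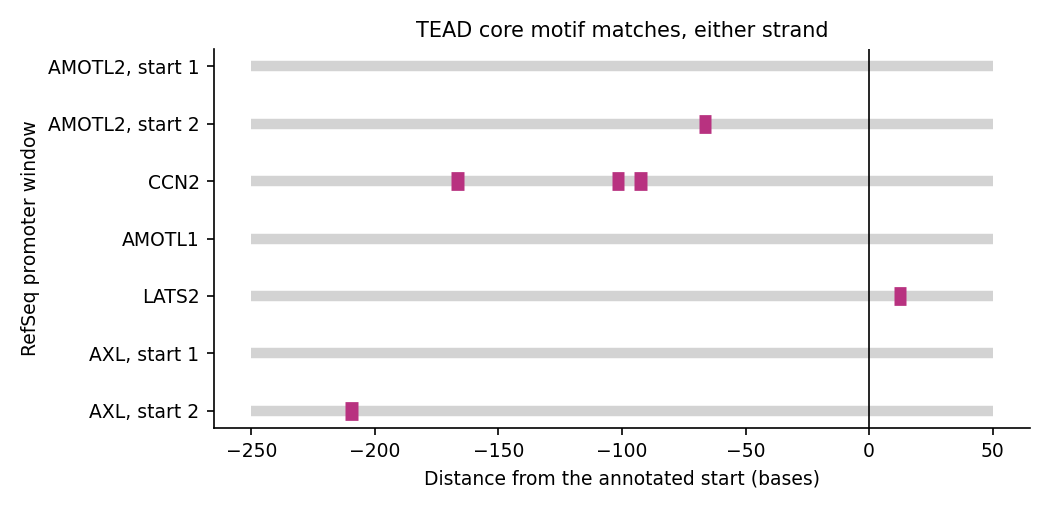
Position of TEAD core motif matches (coloured) in the 7 RefSeq promoter windows (grey bars) of CCN2, AMOTL2, AMOTL1, LATS2 and AXL, by distance in bases from the annotated start (vertical line). CCN2 has 3 matches, all upstream, while AMOTL1 and the first starts of AMOTL2 and AXL have none.

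The secreted targets CCN1 and CCN2 and the angiomotin target AMOTL2 lay on opposite sides of 0. CCN1 and CCN2 had positive values at both times and AMOTL2 had negative ones. AMOTL1 was negative at 3 h and near 0 at 6 h, when LATS2 was the more negative of the pair, and LATS2 was near 0 at 3 h. Sizes were modest. At 3 h none of the 5 measured genes was 1.5-fold or more from 0, a size reached on the positive side by 4.88% and on the negative side by 4.49% of 10810 genes. At 6 h AMOTL2 alone of the 5 passed it, on the negative side, where 4.24% of 10716 genes did, and none passed on the positive side, where 5.63% did. None of the 5 was 2-fold or more from 0, as 1.61% of genes were at 3 h and 1.43% at 6 h.

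CCN1, a ligand of integrins in the matrix, had a log ratio of 0.41 at 3 h, and of 0.54 at 6 h. These are differences of 1.33-fold and 1.45-fold between the channels. More positive values were found for 11.2% of genes at 3 h and 6.83% at 6 h, so that CCN1 stood in the upper part of the distribution without being at its edge.

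CCN2, a ligand of integrins and of LRP1 that is also known as connective tissue growth factor, had a log ratio of 0.55 at 3 h, and of 0.31 at 6 h. They correspond to 1.46-fold and 1.24-fold. Of all genes, 5.69% were more positive at 3 h and 18.9% at 6 h. The order of CCN1 and CCN2 thus changed between the arrays, with CCN2 above CCN1 by 0.14 at 3 h and CCN1 above CCN2 by 0.23 at 6 h.

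AMOTL2, which links cadherin junctions to actin, had the most negative values of the 5, with -0.44 at 3 h and -0.66 at 6 h. The corresponding sizes are 1.36-fold and 1.58-fold. More negative values were found for 7.77% of genes at 3 h and 3.09% at 6 h. AMOTL1, its paralog, had -0.31 at 3 h and -0.03 at 6 h, and at 6 h 91.3% of genes lay farther from 0 than AMOTL1 did.

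LATS2, the kinase that inactivates YAP and TAZ, had 0.04 at 3 h and -0.14 at 6 h. It lay nearer to 0 than 88.7% of genes at 3 h and 65.7% at 6 h. AXL was listed with an empty value on both arrays, as were 15.5% of all probes at 3 h and 16.2% at 6 h. The reason for an empty value is not given in the sources used here.

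**Figure D2:**
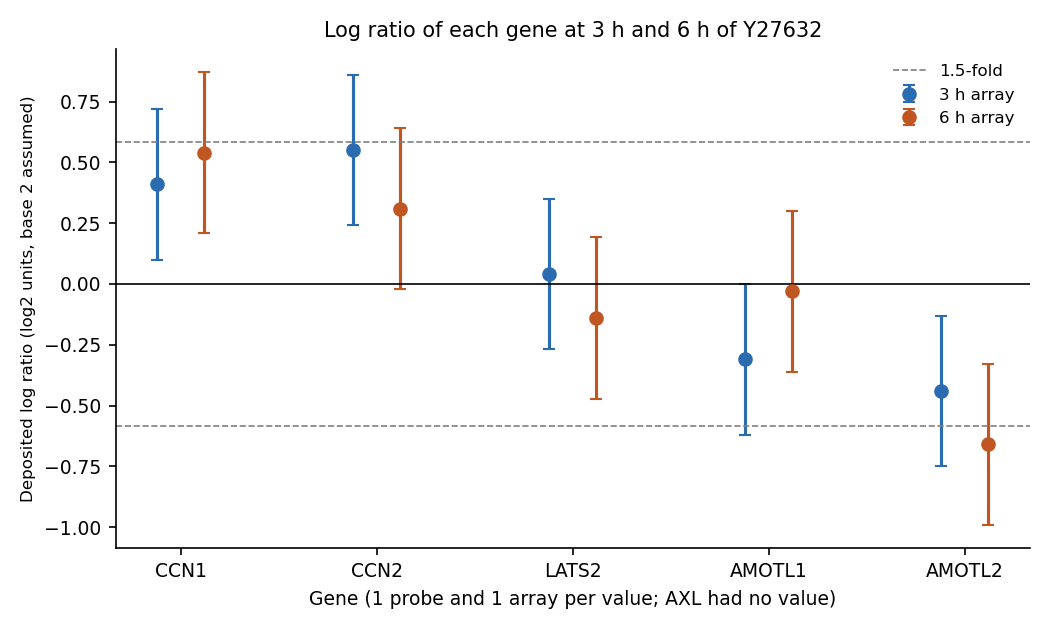
Deposited log ratio (log2 units, base 2 assumed) of CCN1, CCN2, LATS2, AMOTL1 and AMOTL2 on the 3 h and 6 h arrays, 1 probe and 1 array per point. Bars are the SD between probes of one gene (0.31 at 3 h, 0.33 at 6 h), not a spread between cultures. AMOTL2 at 6 h lies beyond the dashed 1.5-fold lines. The bars come from genes with 2 or more probes and cannot show whether a value of a single probe differs from 0.

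The only error available was the spread between probes of one gene. Over 572 genes with 2 or more probes measured at both times, its SD was 0.31 at 3 h and 0.33 at 6 h, which sets the SD of a difference of 2 single probes at 0.44 and 0.47. CCN1 exceeded AMOTL2 by 0.85 at 3 h and 1.20 at 6 h, and CCN2 exceeded AMOTL2 by 0.99 and 0.97. These gaps do not depend on the centring of the arrays. The CCN genes and AMOTL2 were thus separated by more than that SD at both times. They were, however, the 2 highest and the lowest of the 5 genes. The ends of any 5 genes lie farther apart than 2 taken at random, so this SD cannot judge those gaps. In the order of the 5 genes at 3 h (CCN2, CCN1, LATS2, AMOTL1, AMOTL2) no neighbours were separated by more than it. In the order at 6 h (CCN1, CCN2, AMOTL1, LATS2, AMOTL2) only LATS2 and AMOTL2 were, by 0.52. At 3 h a probe at least 0.4 from 0 had the sign of another probe of its gene in 64.5% of 330 ordered pairs. At 6 h it did so in 60.5% of 410 pairs. Each of the 5 genes rested on 1 probe. The SD of the values over all genes was 0.36 at each time, little above the SD between probes of one gene.

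The differences of the log ratios, 6 h minus 3 h, were small. They were 0.28 for AMOTL1, 0.13 for CCN1, -0.18 for LATS2, -0.22 for AMOTL2 and -0.24 for CCN2. The probe SD of such a difference was 0.30, larger than each of them. None reached 1.5-fold, as did 3.05% of 10469 genes on the positive side and 2.70% on the negative side.

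The relatives of AMOTL2 had negative values, though AMOTL1 was near 0 at 6 h. The receptors related to AXL, which itself had no value, were negative as well. The CCN family was split in sign, with CCN5 near 0. In that family CCN5, which lacks the C-terminal domain of its relatives, had -0.08 and -0.14 at 3 h and 6 h. CCN3, listed under its older symbol NOV, CCN4 and CCN6 had no values. All 3 angiomotins, AMOTL2 among them, were negative on both arrays, as were 47.5% of all genes at 3 h and 47.3% at 6 h. Each of the 3 rested on 1 probe. AMOT, the founding member, had -0.21 at 3 h and -0.65 at 6 h, the latter nearly that of AMOTL2, whereas AMOTL1 was near 0 at 6 h. Of the TAM receptors, to which AXL belongs, MERTK had -0.33 and -0.81 and TYRO3 had -0.30 and -0.56. At 6 h 1.62% of genes were more negative than MERTK. Of their ligands, PROS1 was positive on both arrays (0.30 and 0.38) and GAS6 was near 0 (-0.02 and 0.10).

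The coactivators and their DNA-binding partners lay mostly on the negative side. Of 10 genes for YAP, TAZ, the TEAD factors and the VGLL cofactors, 8 had values, of which 7 were negative at 3 h and 6 at 6 h, against 47.5% and 47.3% of all genes. The medians were -0.29 and -0.22, against 0.02 over all genes at each time. WWTR1, which encodes TAZ, had -0.67 at 3 h and -0.55 at 6 h from 1 of its 2 probes, and it alone of the 8 passed 1.5-fold, at 3 h, when 4.49% of all genes did so on the negative side. YAP1 had -0.02 and -0.27. TEAD3 had -0.49 and -0.23, TEAD2 had -0.41 and -0.05, TEAD1 had -0.21 and 0.03, and TEAD4 had -0.15 and -0.20. VGLL4, which competes with YAP for TEAD, had 0.06 and 0.09, and VGLL2 had -0.36 and -0.41.

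Genes of the Hippo kinase cascade lay mostly on the positive side, opposite to the coactivators. Of 19 genes, 16 had values, with 12 positive at 3 h and 11 at 6 h, against 51.3% and 51.5% of all genes, and medians of 0.23 and 0.15. At 1.5-fold or more, 1 of the 16 was positive at 3 h, a share near the 4.88% of all genes, and 3 were at 6 h, against 5.63% of all genes. None was negative at that size. The largest values were those of MAP4K5 and MAP4K3, kinases that can activate LATS beside MST1 and MST2. MAP4K5 had 0.60 and 0.89, and MAP4K3 had 0.56 and 0.78. STK3, which encodes MST2, had 0.47 and 0.72, while STK4, which encodes MST1, had 0.37 and 0.14. LATS1 had 0.51 and 0.41, set apart from its paralog LATS2, whose values lay near 0. SAV1, the scaffold of the MST kinases, had 0.23 and 0.16.

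The remaining kinases were mixed. The LATS relatives STK38 (0.01 at 3 h, 0.58 at 6 h) and STK38L (-0.15 at 3 h, 0.51 at 6 h) were near or below 0 on the first array and positive on the second. TAOK3 (0.38 and 0.50) and TAOK1 (0.31 and 0.12), which activate the MST kinases, were positive on both arrays, while TAOK2 had -0.28 and -0.01. MAP4K4 had 0.23 and 0.06, and TNIK had 0.23 and -0.07. The lowest were MAP4K1, a kinase best known from blood cells, with -0.39 and -0.29, and MINK1 with -0.27 and -0.10. MOB1B had no value on either array.

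**Figure D3:**
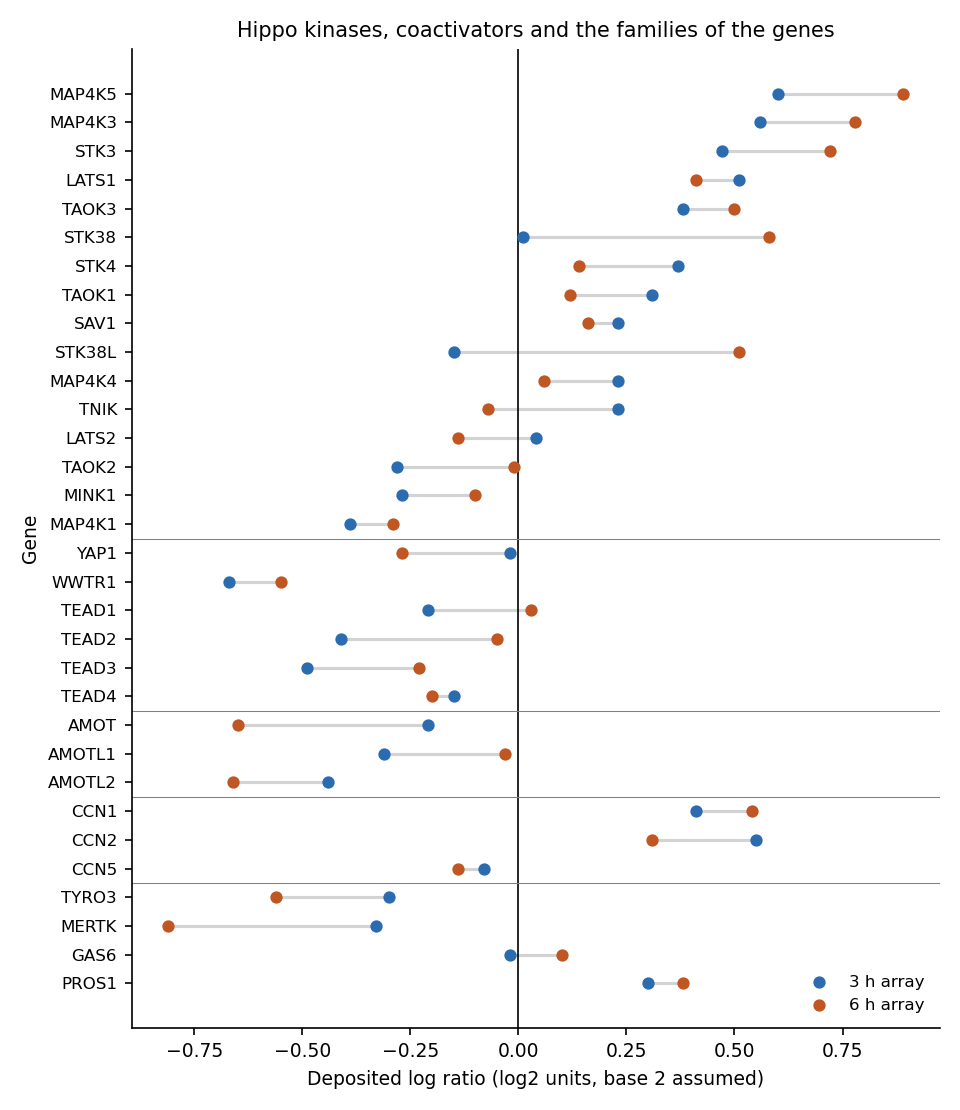
Deposited log ratios (log2 units, base 2 assumed) of Hippo kinases, coactivators with TEAD factors, angiomotins, CCN genes and TAM receptors with ligands, from top to bottom between grey lines, on the 3 h and 6 h arrays. Lines join both values of a gene. MAP4K5 reaches 0.89 and MERTK reaches -0.81 at 6 h. All 3 angiomotins lie left of 0, AMOTL1 at 6 h only just, at -0.03.

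Other regulators of the cascade were spread around 0. Of 27 upstream and junction genes, 20 had values, with medians of -0.03 and 0.05. PARD3, a polarity scaffold, was the most positive with 0.76 and 0.59, followed by TJP1, of tight junctions, with 0.24 and 0.20. At the other end, the polarity gene CRB3 had -0.10 and -0.44 and the cadherin DCHS1 had -0.47 and -0.07. The mean of NF2, whose product merlin activates LATS, was -0.32 and -0.02, but its 2 probes disagreed in sign, with -0.79 and 0.15 at 3 h and -0.24 and 0.20 at 6 h. Of the STRIPAK phosphatase complex, which opposes the MST kinases, 7 of 12 genes had values, with medians of 0.08 and -0.02. SLMAP had 0.36 and 0.63 and STRN3 had 0.14 and 0.61, while STRN4 had -0.23 and -0.09 and STRN had 0.08 and -0.20.

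By the mean of both times, CCN1, CCN2 and AMOTL2 were at the ends of a wider target list. It holds 22 genes used as a readout of YAP and TAZ activity, among them 5 of the 6 genes described here. Genes and list were chosen with earlier results of these data known. The places of CCN1, CCN2 and AMOTL2 may therefore follow from the choice. Of the 22 genes, 15 had values at each time. At 3 h 6 were positive and 9 negative, against 47.5% of all genes negative, with a median of -0.12. At 6 h 7 were positive, 7 negative and 1 at 0, against 47.3% of all genes negative, with a median of 0. CCN1 and CCN2 were the 2 highest by the mean of both times, while AMOTL2 and RBMS3, an RNA-binding protein gene at -0.21 and -0.42, were the 2 lowest. At 6 h alone F3, the tissue factor gene (0.45), and GADD45A, a stress response gene (0.39), were above CCN2. A single gene of the 15, AMOTL2 at 6 h, was at least 1.5-fold from 0. Of all genes at 6 h, 4.24% were on the negative side and 5.63% on the positive side, a share near that of the list. The list thus held no common sign.

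A second list of 20 genes reported as targets, which includes AMOTL1, had 13 with values. Of these 9 were negative at 3 h and 8 at 6 h, against 47.5% and 47.3% of all genes, with medians of -0.17 and -0.07. The lowest were MYC, a growth-promoting transcription factor, with -0.60 and -0.37, and CCND1, a cyclin of the G1 phase, with -0.34 and -0.37. The highest were FSTL1, a secreted glycoprotein gene, with 0.15 and 0.17, and AJUBA, a LIM protein that binds LATS, with -0.01 and 0.13. MYC at 3 h was the 1 value at 1.5-fold or more, on the negative side, where 4.49% of all genes passed.

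**Figure D4:**
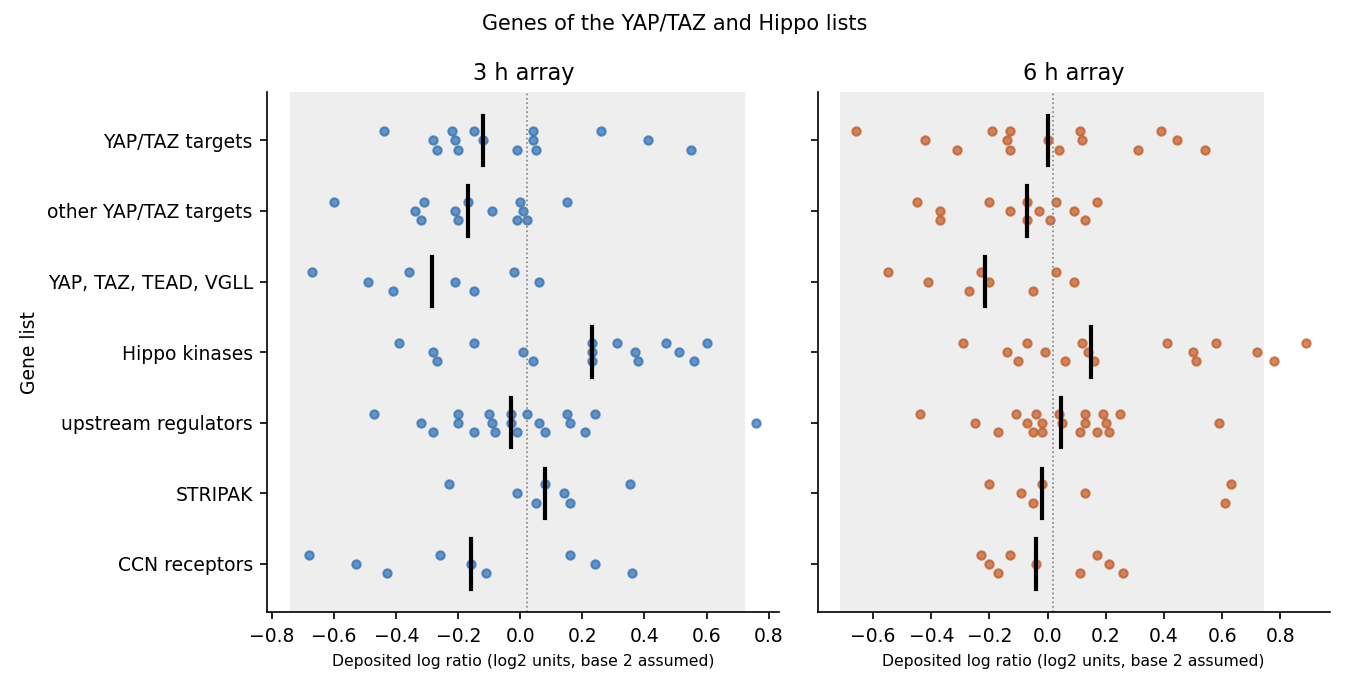
Deposited log ratios (log2 units, base 2 assumed) of the genes of 7 lists at 3 h (left) and 6 h (right), 1 point per gene, with the median of each list as a black bar. Grey shading spans the central 95% of all genes (-0.74 to 0.72 at 3 h, -0.71 to 0.74 at 6 h), and the dotted line is their median of 0.02. The list of YAP, TAZ, TEAD and VGLL genes is centred left of the dotted line, the Hippo kinases right of it.

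Receptors of CCN1 and CCN2 were split in sign. Of 12 integrin, LRP, syndecan and other receptor genes, 9 had values, with 6 negative at 3 h and 5 at 6 h, against 47.5% and 47.3% of all genes, and medians of -0.16 and -0.04. ITGAV, the integrin chain that binds both ligands, had 0.36 and 0.26, and SDC4, a syndecan, had 0.24 and 0.11. LRP1 had -0.68 and -0.13, and ITGB3 had -0.53 and -0.23.

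CCN1 and CCN2 are also targets of SRF and its actin-sensing MRTF cofactors. They had the 2 highest means over both times among 20 genes of that group with values at both times. CCN1 and CCN2 belong to the group, which was chosen with earlier results known, so their place in it is not separate support. At 3 h alone EGR1 (0.43) was above CCN1 (0.41). The median of the group was -0.14 at 3 h over 21 genes and -0.15 at 6 h over 20, and its lowest genes by the mean of both times were FOS (-0.87 and -0.75) and TAGLN (-0.42 and -0.40). MRTFB, with a value at 3 h only and from 1 of its 2 probes, was lower there (-1). At 6 h EGR1 (-0.68) and MYL9 (-0.63) were below TAGLN. The genes of the inhibited kinases, ROCK1 and ROCK2, were positive on both arrays (ROCK1 0.14 and 0.41, ROCK2 0.39 and 0.38).

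Genes with values most like those of each gene were found by Euclidean distance over the 2 arrays, which is a weak measure with 2 values per gene. Nearest to CCN1 were LUC7L, a splicing factor gene (0.41 and 0.54), DNAJB9, a chaperone gene (0.42 and 0.55), and ATRX, a chromatin remodeller gene (0.41 and 0.56). For CCN2 they were ZNF143, CDC5L and PARP11, for AMOTL2 MAB21L2, HTR1D and LPP, for AMOTL1 AGAP2, ARNT2 and IMPG2, and for LATS2 CCT4, CD9 and EDN3. The largest of these distances was 0.022, between AMOTL2 and LPP. Within a distance of 0.1 there were 200 genes around CCN1, 131 around CCN2, 48 around AMOTL2, 259 around AMOTL1 and 568 around LATS2, of 10344 compared.

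Some groups of genes outside the pathway also leaned to the negative side, although all genes together, with a median of 0.02 at each time, did not. Olfactory receptor genes, which kidney cells are not known to express as a family, had medians of -0.17 over 154 genes at 3 h and -0.22 over 133 at 6 h, with 68.8% and 70.7% negative, against 47.5% and 47.3% of all genes. The 3 endothelial markers ranged from -0.72 to -0.11 at 3 h and from -0.55 to -0.42 at 6 h. The 6 genes taken as marks of 293T, of kidney progenitors and neurons, ranged from -0.73 (NEFL) to 0.08 (ENO2) at 3 h, 3 of them negative, and from -0.69 (NEFL) to 0.23 (NEFH) at 6 h, 4 of them negative. LHX1 had -0.51 and -0.45. Of fibroblast markers 2 of 4 had values at 3 h (-0.16 and 0) and 1 at 6 h (-0.17), and of blood markers 1 of 3 did (CD3E, 0.03 and -0.12). The part of such a shift in the negative values of AMOTL2, AMOT, MERTK, TYRO3 and the TEAD factors was not tested, and no spot intensities were used here.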

How the data were processed

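The 6 genes and the gene lists were chosen with earlier results of these data known. The authors deposited 1 log ratio per probe and array, read here as log2. For the tools, the normalization, the log base and the numerator, the answer is not given in the sources used here. Base 2 was assumed because the SD over probes at 3 h is then 1.30-fold, against 2.39-fold in base 10. The median probe was 0 on each array. Of 24267 probes, 13395 had 1 gene symbol in the platform annotation, 0 several and 10872 none. Of the symbols 10822 were current in RefSeq (GRCh38.p14), 2446 were updated by a unique synonym and 127 were kept. A gene's value is the mean of its probes. With 1 array per time no test was made. Genes were counted at 1.5-fold (0.58 in log2 units) or 2-fold from 0. Lists are described by counts and medians.

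Genes named in the text are the 6 genes, their families, YAP1, WWTR1, TEAD1 to TEAD4, the Hippo kinases, ROCK1 and ROCK2. Also named are the 2 highest and 2 lowest genes of each other list by the mean of both times. The last are the 3 genes nearest to each of the 5 with values. NF2, F3, GADD45A, MRTFB, EGR1 and MYL9 were named after their values were seen. The number of arrays limits the precision. Alternatives were the probe farthest from 0, centring on the median gene, probes with both values, natural logarithms, means for medians, and symbols not updated. Calculations used Python 3.11.15 with pandas 2.3.3 and numpy 2.4.6 and were tested on simulated data.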

Additional observations from a re-analysis of the deposited data

Results flagged for a closer look

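STK38L, a kinase related to LATS1 and LATS2, had opposite signs on the arrays, -0.15 on the 3 h array and 0.51 on the 6 h array, which differ by 0.66. The difference was not tested, since each time has 1 array. EGR1, an early response gene in the SRF and MRTF group, had 0.43 at 3 h and -0.68 at 6 h and thus differed by -1.11, which was not tested either. No other gene named for its family, its list or its own values had opposite signs and a difference of at least 1.5-fold. Genes named for their likeness to one of the 6 were not examined for this.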

How the results depend on the processing

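Values of CCN1, CCN2, AMOTL2, AMOTL1 and LATS2 moved by less than the probe SD in all 60 recalculations of the log ratios and their differences. With 1 probe each, 2 of the 4 alternatives could not change them. Centring could move each log ratio only by the median of all genes, 0.02, and left the differences unchanged. Natural logarithms multiplied every value by the same factor. The 60 recalculations are therefore a weak check of these values. Read as natural logarithms, CCN1, CCN2 and AMOTL2 would be past 1.5-fold at 3 h and CCN1 and AMOTL2 at 6 h. Over all genes that reading gave, positive and negative, 1266 and 985 genes at 1.5-fold at 3 h in place of 527 and 485, 1385 and 1015 at 6 h in place of 603 and 454, and 674 and 589 for the difference in place of 319 and 283. At 2-fold it gave 310 and 323 at 3 h, 346 and 294 at 6 h, and 231 and 185 for the difference. Of 162 recalculated list medians, 155 moved by less than the probe SD divided by the square root of the number of genes. These are a weak check too. The probe farthest from 0 and probes with both values changed only the median of the SRF and MRTF group. Centring could move a list median only by 0.02. Without updated symbols, which drops CCN1, CCN2, MYOF and ASAP1, the median of the wider target list was -0.20 at 3 h, and -0.13 at 6 h. Means in place of medians gave -0.037 for that list at 3 h. At 6 h means gave 0.27 for the Hippo kinases, 0.14 for STRIPAK and -0.45 for the angiomotins, and -0.083 for the SRF and MRTF group in the difference. No paired analysis was possible because each time has 1 array, and the labels give no replicate numbers that could pair samples.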
